A study of Mus musculus with 8 samples.

Results

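The genes described here are 33 mouse genes that earlier work on various cells has described as targets of the microRNA miR-21. They were taken by gene symbol from the array's probe annotation, with older symbols allowed, and every one of the 33 has at least 1 probe. A probe was used where its detection p, the authors' measure of signal over negative controls, was under 0.01 on at least 2 of 8 arrays. By that rule 25 of the 33 genes were measured, among 8197 gene symbols and 11047 probes in all, and each gene is given by its brightest such probe. The rule itself used no measured value beyond this filter and the brightness of probes. The genes were, however, chosen with earlier results of these data known.

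Total RNA came from CD4+ T cells of mesenteric lymph nodes, taken from mice of the Mir-21-/- genotype (KO) and from wild-type littermates (WT). From each genotype a CD4+CD25High and a CD4+CD45High population were sorted; the labels do not say which CD45 isoform was stained. Each population was taken without stimulation or after 30 min with antibodies against CD3 and CD28, which engage the T cell receptor and its main costimulatory receptor. This gives 8 Illumina MouseRef-8 v2.0 arrays, 1 for each combination and none repeated, so that a p-value tells how steady a difference was over the cell populations and states, and carries no spread between mice. The sources used here give neither the number of mice behind each array nor their age or sex. miR-21 itself was not analysed on these arrays, and the genotypes are those of the labels.

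A microRNA guides a silencing complex to messenger RNAs whose 3′ untranslated region pairs with its seed, bases 2 to 8, and the bound messages are translated less and often degraded. miR-21 is induced in activated T cells and is known for repressing inhibitors of growth and survival signals, among them Pdcd4, the regulators of RAS signalling and members of the TGF-beta pathway. The mature sequences below come from RefSeq (GRCm38.p6), with the seed in capitals. They are shown because the seed defines which messages a deletion of Mir21a could release. The deleted gene is Mir21a on the minus strand of chromosome 11, whose main product spans chr11:86584120-86584141 and whose other arm spans chr11:86584082-86584103. Mir21c (chr8:128278188-128278208, minus strand) has the same seed as miR-21a-5p, and Mir21b (chr3:29636768-29636790, plus strand) differs from it within the seed.
mmu-miR-21a-5p: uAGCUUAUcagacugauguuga
mmu-miR-21a-3p: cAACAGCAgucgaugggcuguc
mmu-miR-21b: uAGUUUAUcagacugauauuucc
mmu-miR-21c: uAGCUUAUcagacugguacaa
A message carrying a full seed match to miR-21a-5p would hold the letters AUAAGCU. Target sites in the 33 genes were not searched here.

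Per array 9208 to 10477 probes were detected, each read by a median of 38 to 40 beads whose standard error was typically 2.42 to 2.74% of signal (medians over probes), and 21 to 25 of the 25 genes were detected on each array. Precision is limited by the number of arrays. The KO CD25High stimulated array stood apart. It correlated with the remaining arrays at a median of 0.888, while the medians of those arrays were 0.938 to 0.965, and the genotype difference in its pair had an SD of 0.817 log2 over all probes, against 0.234 to 0.300 in the other pairs. The population labels were checked on marker genes: 7 of 7 regulatory T cell markers were called higher in CD25High than in CD45High cells, Foxp3, the factor that defines regulatory T cells, by 5.66 log2. Of 8 CD4 T cell markers 7 were measured, all of them detected on every array, and Cd5 was not analysed here. In bulk samples such as these, fewer cells of a type and less RNA per cell cannot be told apart.

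Of the 8 genes that were not measured, 7 were detected on none of the arrays. They were Spry2, an inhibitor of receptor tyrosine kinase signals, Smad7, the inhibitory SMAD, Bmpr2 and Acvr2a, type II receptors for bone morphogenetic proteins and activins, Ccl20, a chemokine for CCR6-bearing cells, Jag1, a Notch ligand, and Nfib, a transcription factor. The last was Timp3, an inhibitor of matrix proteases, with 1 of its probes detected on 1 array. Spry2, for example, had linear intensities of 101, 98.3, 88.6 and 97.6 on the KO arrays and 91.3, 93.1, 88.7 and 90.6 on the WT arrays (in each case CD25High stimulated, CD25High unstimulated, CD45High stimulated, CD45High unstimulated, the order kept for genotype below). Nothing is said here of a genotype difference in these genes, since a message below background on all arrays has only an upper bound. Il12a and Sesn2 passed with 2 detected arrays each, Glcci1 with 6 and Reck with 7, and the other 21 measured genes were detected on all 8.

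**Figure D1:**
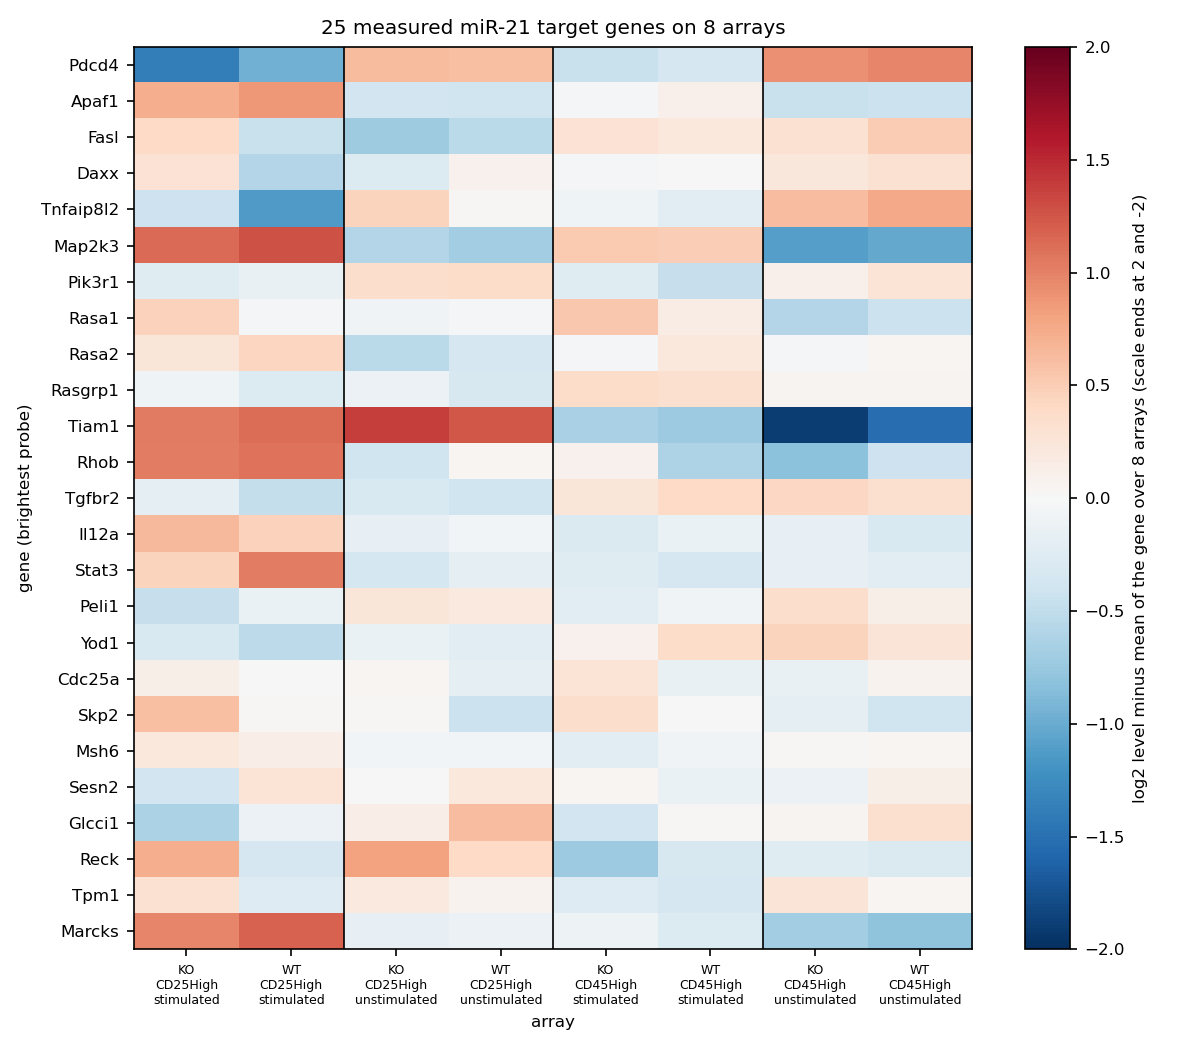
Level of each of the 25 measured genes (rows, ordered by role) on each of the 8 arrays (columns), as the log2 neqc value minus the gene's own mean over the 8 arrays. Pdcd4 and Map2k3 change colour in opposite directions between stimulated and unstimulated columns, Tiam1 separates the CD25High from the CD45High columns, and KO and WT columns of the same pair look alike for most genes.

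The comparison of KO with WT cells asks which messages differ when miR-21 is deleted. Among the 25 target genes none passed the test for genotype over the 4 matched pairs. Their median difference, KO minus WT, was 0.004 log2, with 13 of 25 above 0, and the median of all 11047 probes was 0.04. The gene differences lay between -0.42 (Glcci1) and 0.40 (Skp2). The count of 0 of 25 stands beside a background of 0% of all probes called by limma at a Benjamini-Hochberg adjusted p under 0.05. Without adjustment, p was under 0.05 for 2 of the 25 genes, Skp2 and Glcci1, and for 9.80% of all probes, and the lowest adjusted p, for genes and probes alike, was 0.493.

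Intervals of the 25 differences were taken over these pairs, and they bound a genotype effect only for genes well above background. The standard errors ran from 0.103 to 0.235 log2, and all 25 intervals at 95% lay inside a 2-fold change in either direction. For 18 genes both limits lay inside 1.5-fold, and for 20 genes the upper limit, which bounds a rise in KO cells, was under 1.5-fold. The highest upper limit was that of Reck, 1.80-fold. For Pdcd4 the interval reached from -0.43 to 0.14 log2, so that its upper limit was 1.11-fold. These intervals rest on the 4 pairs and carry no spread between mice. The counts include genes with signals near background: Il12a and Sesn2 (2 arrays detected each), Glcci1 (6) and Reck (7). The offset shrinks differences there, so the intervals of these genes do not bound a change in message. Skp2 was detected on all 8 arrays but was also dim, at 119 to 158 linear units, against 104 to 182 for Reck. The same limit holds for the interval of Skp2.

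Genes that act on cell death and translation are the best known of the group. Pdcd4, which binds the helicase eIF4A and holds back translation, read 5.84, 7.84, 6.78 and 8.12 log2 on the KO arrays, against 6.25, 7.82, 6.88 and 8.20 on the WT arrays. The values of each pair lay close together, KO being lower in 3 of the 4 pairs, and the mean difference was -0.14 (SE 0.12, limma adjusted p = 0.601). Without the pair of the KO CD25High stimulated array it was -0.05. Apaf1, the scaffold of the apoptosome, differed by -0.06, Daxx, a death-associated nuclear protein, by 0.09, and Fasl, the death ligand of cytotoxic T cells, by 0.14. The other Apaf1 probe was at -0.90. Tnfaip8l2, an inhibitor of immune receptor signals also called TIPE2, differed by 0.28 (adjusted p = 0.508), or 0.13 without the CD25High stimulated pair, while its other probe was at -0.61. Daxx and Fasl owed their values to 1 pair: 0.88 and 0.85 in the CD25High stimulated pair, while the other pairs gave -0.36 to -0.06 for Daxx and -0.20 to 0.07 for Fasl.

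The signalling genes of the RAS, MAPK and PI3K pathways and of small GTPases had 2 of 7 measured members above 0 and a median of -0.02. Rasa2, a GTPase activator that switches RAS off, was below 0 in all pairs. It read 8.73, 7.95, 8.47 and 8.47 on the KO arrays, against 8.92, 8.15, 8.70 and 8.53 on the WT arrays. The mean difference of -0.17 (SE 0.10, adjusted p = 0.513) shrank to -0.03 when arrays were centred on their median in place of quantile normalization. Rasa1, another RAS GTPase activator, differed by 0.17 (0.07 without the CD25High stimulated pair), Rasgrp1, the exchange factor that turns RAS on below the T cell receptor, by 0.11, and Tiam1, an exchange factor for RAC, by -0.06. Map2k3, the kinase above p38, Pik3r1, the regulatory subunit of PI3K, and Rhob, a small GTPase, lay between -0.05 and -0.01. The other passing probes of Rasgrp1 were at -0.88 and -0.49, each below 0 in all 4 pairs. Those of Pik3r1 were at -0.01 and -0.79, the latter below 0 in all 4 pairs. For the TGF-beta pathway 1 of 4 members was measured, Tgfbr2, the ligand-binding receptor, at 0.08. Its weaker probe, ILMN_1242086, was at -0.61 and below 0 in all 4 pairs, and it was not detected on the KO CD25High stimulated array.

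Among cytokine, STAT and NF-kappaB genes, Stat3, the transcription factor of the interleukin-6 family of cytokines, differed by -0.15 (-0.007 without the CD25High stimulated pair), Peli1, a ubiquitin ligase of receptor signals, by -0.05, Yod1, a deubiquitinase, by 0.06, and Il12a, a chain of interleukin-12, by 0.02. The other Stat3 probes were at 0.06 and -1.18. Of the cell cycle and repair genes, Cdc25a, the phosphatase that activates cyclin-dependent kinases, differed by 0.14, Msh6, a mismatch repair protein, by -0.03, and Sesn2, a stress-induced sestrin, by -0.23. Sesn2 was detected on none of the KO arrays and on 2 of the WT arrays, so its level in KO cells is only a bound. In the matrix and cytoskeleton group, Reck, a membrane-anchored protease inhibitor, differed by 0.28 and Marcks, a substrate of protein kinase C that binds actin, by 0.004. Reck read 6.20, 6.28, 4.75 and 5.23 on the KO arrays, against 5.14, 5.88, 5.15 and 5.18 on the WT arrays, so that its difference came from the CD25High pairs, with the 1.06 of the stimulated pair the largest of any of the 25 genes in any pair.

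The sign of the difference was the same in all 4 pairs for 4 of the 25 genes, 16%, against 23.6% of all probes. Skp2, the F-box protein that marks the inhibitor p27 for degradation, read 6.26, 5.69, 6.02 and 5.49 on the KO arrays, against 5.69, 5.24, 5.67 and 5.27 on the WT arrays. KO was above WT within each pair, by 0.22 to 0.58, although the groups overlap across pairs. The mean difference was 0.40 (SE 0.11, adjusted p = 0.493). Skp2 was dim even on its brightest probe, at 119 to 158 linear units, though detected on all 8 arrays. Its other passing probe, ILMN_2633697, passed only through 2 WT arrays and was detected on none of the KO arrays, so it gives no difference. Tpm1, a tropomyosin of the actin cytoskeleton, read 7.97, 7.85, 7.40 and 7.91 on the KO arrays, against 7.40, 7.73, 7.33 and 7.69 on the WT arrays. Its mean of 0.24 (SE 0.13, adjusted p = 0.494) became 0.14 without the CD25High stimulated pair.

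Glcci1, a gene known for its induction by glucocorticoids, was the lowest of the 25 in KO relative to WT cells, and its values were near the detection limit. It read 4.27, 5.04, 4.52 and 4.96 on the KO arrays, 2 of them detected, against 4.79, 5.53, 4.93 and 5.23 on the WT arrays, all detected. KO lay below WT by 0.26 to 0.52 in each pair, with a mean of -0.42 (SE 0.11, adjusted p = 0.493). A further probe of the gene, ILMN_2734737, passed the filter only through 3 WT arrays and was detected on none of the KO arrays, so it gives no separate support. Neither probe passed the test.

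**Figure D2:**
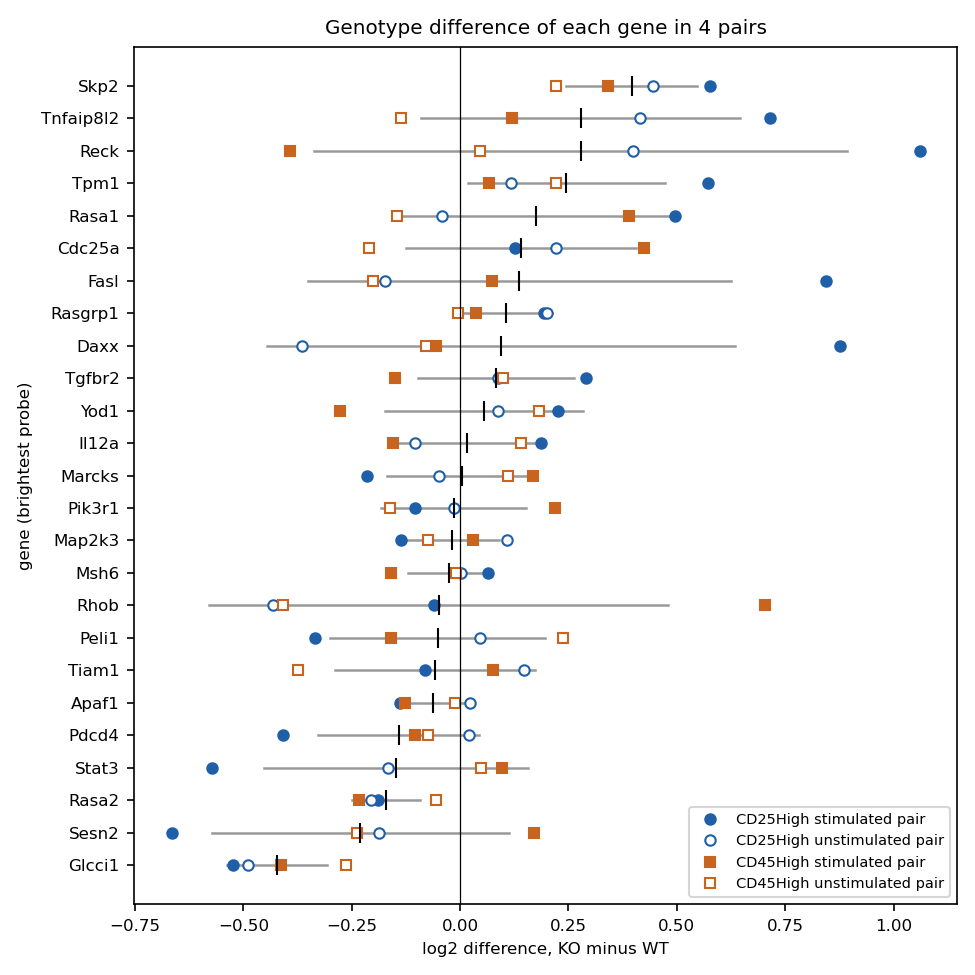
Genotype difference, KO minus WT in log2, of each of the 25 genes in each of the 4 matched pairs (symbols), with the mean (tick) and 1 SD either side of it over the pairs (grey bar). Skp2 and Tpm1 lie above 0 in all pairs, Rasa2 and Glcci1 below 0, and the filled circles of the CD25High stimulated pair are the most widely scattered.

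By pair, 13 of 25 genes lay above 0 in the CD25High stimulated pair, 14 in the CD25High unstimulated pair, 14 in the CD45High stimulated pair and 9 in the CD45High unstimulated pair. Over all probes these shares were 60.7%, 52.6%, 49.7% and 50.5%. Within CD25High cells the median of the genes was 0.03 (all probes 0.08) and within CD45High cells -0.02 (all probes 0.002), and limma called 0 genes in either, against a background of 0% in each, with 4 and 0 genes at an unadjusted p under 0.05 (16.3% and 1.26% of all probes). With the CD25High unstimulated pair left out, CD25High cells are represented by the stimulated pair alone, which holds the outlying KO array and is taken to vary like the CD45High pairs. The widest differences in that pair were those of Reck (1.06), Daxx (0.88), Fasl (0.85), Tnfaip8l2 (0.71) and Sesn2 (-0.67). Sesn2 passed the filter only through the 2 WT CD25High arrays, so its KO level there is only a bound. In stimulated and in unstimulated cells the medians were 0.02 and 0.006, again with 0 called and a background of 0%, and 3 and 0 genes had an unadjusted p under 0.05 (14.3% and 2.09% of all probes). Without the CD45High stimulated pair 8 genes were called in stimulated cells, among 3700 probes. No gene was called for a genotype effect that differed between the populations or between the stimulation states (background 0% each), and 1 and 0 genes had an unadjusted p under 0.05, against 3.60% and 3.66% of all probes. Between populations the widest such difference was in Reck, whose genotype effect in CD25High cells exceeded that in CD45High cells by 0.90 (adjusted p = 0.824), and between stimulation states in Rhob, 0.74 higher in stimulated cells (adjusted p = 0.863). Leaving out the CD25High unstimulated pair gave 3 genes for the population difference, and leaving out the CD45High stimulated pair gave 3 for the difference between states, each time with the outlying KO array in a lone pair. On simulated data with these arrays' noise the fit over 4 pairs recovered 68% of log2 changes of 1 and 89% of changes of 2. The fits within 1 population or state recovered at most 1% of changes of 1 and 49 to 65% of changes of 2, and the tests of a difference between them recovered 0% of either, so calls of 0 in those tests carry little weight. Changes smaller than 1 log2 were not simulated, so recovery of smaller shifts is not known for any fit, the fit over 4 pairs included.

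Of the 25 genes, 10 have more than 1 passing probe, and these probes disagreed in 1 pair above all. In the CD25High stimulated pair the genotype differences of a gene's probes spread over more than 1 log2 in 7 of the 10 genes, with a median range of 1.73, against 1, 0 and 0 genes in the CD25High unstimulated, CD45High stimulated and CD45High unstimulated pairs. Over all 2048 genes with several passing probes the shares were 34.3%, 2.69%, 1.37% and 0.342%. Stat3 had the widest range, 4.37. Its probe ILMN_3096144 read 4.35 in KO cells of that pair, 4.65 below the WT array, while the brightest Stat3 probe read 10.84 in KO and 11.41 in WT cells. Among the other low probes of that array were ILMN_1228561 of Apaf1, 2.95 below its WT partner, ILMN_1214318 of Rasgrp1, 2.55 below, ILMN_1249688 of Tnfaip8l2, 2.31 below, and ILMN_3040050 of Pik3r1, 2.08 below. The brightest probes of these 4 genes lay between -0.14 and 0.71 in the same pair. Of these 5 low probes, 4 were not detected on that array, so their values there are bounds. What sets them apart was not tested.

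**Figure D3:**
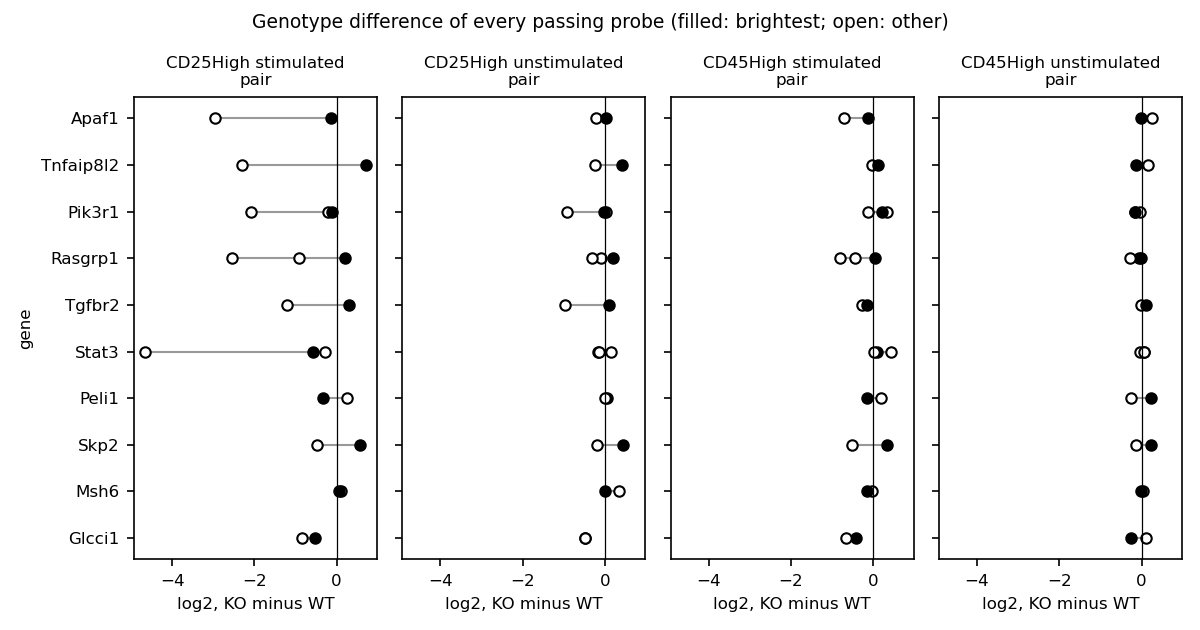
Genotype difference, KO minus WT in log2, of every passing probe of the 10 genes with several probes, in each pair (panels); filled circles are the brightest probe, open circles the others, and the grey line joins a gene's probes. The spread exceeds 1 log2 for 7 of 10 genes in the CD25High stimulated pair and for at most 1 gene in the other panels.

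Stimulation for 30 min had more calls among these genes than genotype or population. Over the 4 matched pairs of stimulated and unstimulated cells, 8 of the 25 genes passed the test, 4 higher and 4 lower after stimulation. That is 32%, against 16% of all probes called by limma (7.93% higher, 8.10% lower). Throughout, the 25 genes are counted by their brightest probe, whereas shares of all probes include the weaker probes of a gene, so the bases differ. The median over the 25 genes was 0.11 log2, with 14 above 0, and over all probes -0.002. The direction was the same in all 4 pairs for 12 of the 25 genes, 48%, against 43.7% of all probes. Of 14 early response genes measured from the list set beside them, 3 rose and 1 fell: Crem rose by 3.40 log2, Nr4a3, a nuclear receptor induced by the T cell receptor, by 2.64 and Ier3 by 1.68, while Ier2 fell by 0.88. The other 10, Fos, Jun and Egr1 among them, did not pass, and the summed linear level of the list overlapped, at 13658 to 17751 on stimulated arrays, against 12409 to 21609 on unstimulated ones. In WT cells it was 21609 and 17985 unstimulated (CD25High, then CD45High), against 17535 and 13658 stimulated. In KO cells it was 12409 and 12657 unstimulated, against 17751 and 15710 stimulated. The sum thus fell in WT and rose in KO cells, and this split was not tested. All 8 calls needed the WT CD25High pair: without it none of the 8 passed (adjusted p = 0.0585 to 0.172) and the count over all probes was 0. Without the KO CD25High pair, which holds the array that stood apart, 8 of the 25 passed, without the KO CD45High pair 2 and without the WT CD45High pair 5.

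Map2k3 rose most. It read 10.76, 10.90, 10.15 and 10.12 on the stimulated arrays (KO CD25High, WT CD25High, KO CD45High, WT CD45High, the order kept for stimulation below), against 9.04, 8.93, 8.53 and 8.61 on the unstimulated arrays. Every stimulated array lay above every unstimulated one, and the difference of 1.70 (SE 0.13) is 3.25-fold (limma adjusted p = 0.0047). Marcks read 8.01, 8.23, 6.94 and 6.77 stimulated, against 6.87, 6.92, 6.34 and 6.23 unstimulated, and rose 1.86-fold (0.90 log2, SE 0.17, adjusted p = 0.0223). Its groups overlap across populations, since the stimulated CD45High arrays were near the unstimulated CD25High ones, but not within a population. Apaf1 read 9.12, 9.26, 8.36 and 8.49 stimulated, against 8.01, 7.99, 7.95 and 7.97 unstimulated. The groups do not overlap, and the rise was 1.77-fold (0.83 log2, SE 0.18, adjusted p = 0.0314), while its other probe differed by 0.15 (adjusted p = 0.827). Skp2 had 6.26, 5.69, 6.02 and 5.67 stimulated, against 5.69, 5.24, 5.49 and 5.27 unstimulated, a rise of 0.49 (SE 0.12, adjusted p = 0.0375). The mean over both of its probes was 0.18 and did not pass (adjusted p = 0.316).

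Pdcd4 fell most. It read 5.84, 6.25, 6.78 and 6.88 on the stimulated arrays, against 7.84, 7.82, 8.12 and 8.20 on the unstimulated arrays. The groups are well apart, and the difference of -1.56 (SE 0.15) is a 2.95-fold lower level after stimulation (limma adjusted p = 0.0063). It was -2.0 in KO and -1.57 in WT cells of the CD25High population, and -1.35 in KO and -1.32 in WT cells of the CD45High population, so the fall was measured in both genotypes. Tnfaip8l2 read 7.82, 7.10, 8.15 and 8.03 stimulated, against 8.68, 8.26, 8.85 and 8.99 unstimulated. The groups do not overlap, and the level was 1.89-fold lower after stimulation (-0.92, SE 0.13, adjusted p = 0.0113). Pik3r1 read 9.74, 9.84, 9.73 and 9.51 stimulated, against 10.34, 10.35, 10.09 and 10.25 unstimulated. The groups do not overlap. The brightest probe fell by 0.55 (SE 0.12, adjusted p = 0.0328), and both other probes passed as well, at -0.54 (adjusted p = 0.0456) and -1.29 (adjusted p = 0.0208). Glcci1 fell by 0.56 (SE 0.14, adjusted p = 0.0397), with 4.27, 4.79, 4.52 and 4.93 stimulated, against 5.04, 5.53, 4.96 and 5.23 unstimulated. It was detected on 2 of the 4 stimulated arrays and on all 4 unstimulated ones, and its fall was -0.16 (adjusted p = 0.117) without background correction.

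**Figure D4:**
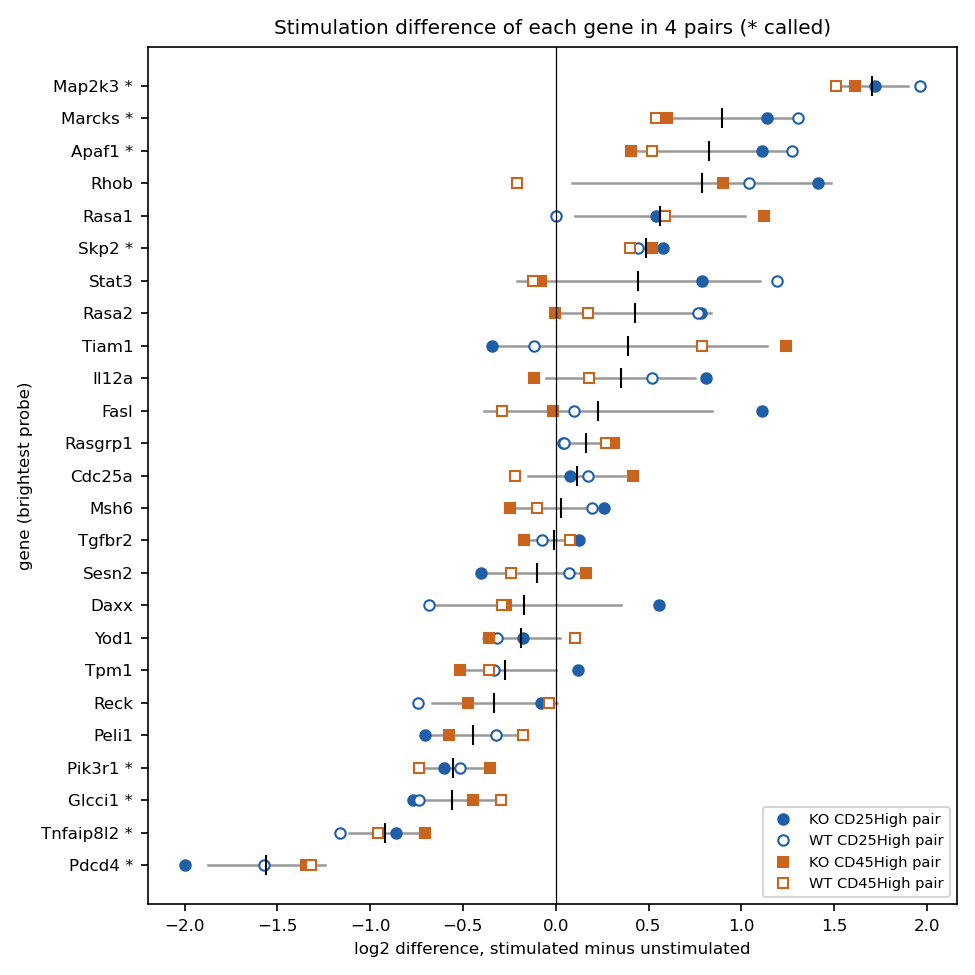
Stimulation difference, stimulated minus unstimulated in log2, of each of the 25 genes in the 4 pairs of genotype and population (symbols), with the mean (tick) and 1 SD either side (grey bar); a star marks the 8 genes that passed the test. Map2k3 sits between 1.51 and 1.96 and Pdcd4 between -2.0 and -1.32, while Stat3, Rasa2 and Tiam1 split by population.

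Within CD25High cells 9 of the 25 genes passed, 6 higher and 3 lower, against 14.1% of all probes (7.36% higher, 6.77% lower), and within CD45High cells 2, Map2k3 and Pdcd4, against 0.941%. Higher in stimulated CD25High cells were Map2k3 (1.84 log2), Rhob (1.23), Marcks (1.22), Apaf1 (1.19), Stat3 (0.99) and Rasa2 (0.77), and lower were Pdcd4 (-1.79), Tnfaip8l2 (-1.01) and Glcci1 (-0.75), with limma adjusted p from 0.0076 to 0.0470. Without the KO or without the WT CD45High pair, which share their error with the CD25High pairs, Map2k3 and Pdcd4 were the 2 genes still called. Without the KO or without the WT CD25High pair, 11 and 12 genes were called in CD25High cells and 8 in CD45High cells, and without either CD45High pair 0 were called in CD45High cells. With a mean over a gene's probes Stat3 was at 0.32 (adjusted p = 0.612) and Apaf1 at 0.61 (adjusted p = 0.285), and of the alternative settings Rhob lost its call in 3 of 10 and Glcci1 in 4 of 9. Rhob read 7.26 in KO and 7.32 in WT stimulated CD25High cells, against 5.85 in KO and 6.28 in WT unstimulated ones. In CD45High cells its pairs gave 0.90 in KO and -0.21 in WT cells. The brightest probe of Stat3 read 10.84 and 11.41 in stimulated CD25High cells (KO, then WT), against 10.05 and 10.22 unstimulated, and its CD45High pairs gave -0.08 and -0.12. Il12a was detected on the stimulated CD25High arrays alone, at 5.12 in KO and 4.94 in WT cells, and so passed the filter only through those arrays. The difference of the stimulation effect between the populations was called for none of the 25 genes and for 0% of all probes (9.48% at an unadjusted p under 0.05, with 5 of the 25 genes). The lowest adjusted p, 0.438, belonged to Tiam1, whose stimulation effect was 1.24 log2 lower in CD25High than in CD45High cells, and to Stat3, where it was 1.09 higher. Without the KO CD25High pair 1 gene was called for this difference, and without the WT CD25High pair 4 were, in fits with a lone CD25High pair.

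Of the genes that did not pass over the 4 pairs, Rhob (0.79, adjusted p = 0.0897), Rasa1 (0.56, adjusted p = 0.0939) and Peli1 (-0.44, adjusted p = 0.0759) came nearest. Rasgrp1 (0.17), Peli1 and Reck (-0.33) had the same sign in all pairs, as had Rasa1, and Tgfbr2 (-0.01), Msh6 (0.03) and Cdc25a (0.11) lay nearest to 0. Markers of other cells moved with stimulation too. Of 8 B cell markers measured, Fcer2a rose by 1.82, and the summed linear level of the 8 ranged from 380 to 1420 on stimulated arrays, against 310 to 864 on unstimulated ones. Of 5 myeloid markers measured, Lyz2 fell by 2.19 and the others did not pass, S100a8 lying at 1.46 (adjusted p = 0.0632), with sums of 117 to 585 on stimulated arrays, against 252 to 537 on unstimulated ones. Of the 4 markers of NK and CD8 T cells measured, Nkg7 and Cd8b1 fell by 1.29 and 0.63. Klrd1 (1.08, limma adjusted p = 0.112) and Klrb1c (0.14) lay above 0 and did not pass. Sums of the 4 were 947 to 1113 on stimulated arrays, against 1277 to 1420 on unstimulated ones. Their part in the values of the target genes was not tested.

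Between the populations, Tiam1 had the widest difference of the 25 genes. It read 10.88, 11.22, 10.96 and 11.08 on the CD25High arrays (KO stimulated, KO unstimulated, WT stimulated, WT unstimulated, the order kept for the populations below), against 9.19, 7.95, 9.11 and 8.32 on the CD45High arrays. The groups are far apart, with the unstimulated CD45High arrays lowest, and the difference of 2.39 (SE 0.28) is 5.26-fold (limma adjusted p = 0.0066). In all, 4 of the 25 genes passed the population test, 16%, against 8.29% of all probes (5.40% higher, 2.89% lower). The median over the 25 genes was 0.10 log2, with 14 above 0, and over all probes -0.03.

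Marcks was the other gene higher in CD25High cells. It read 8.01, 6.87, 8.23 and 6.92 there, against 6.94, 6.34, 6.77 and 6.23 in CD45High cells, 1.91-fold (0.94 log2, SE 0.18, adjusted p = 0.0291). Lower in CD25High cells was Tgfbr2, with 11.32, 11.20, 11.03 and 11.11, against 11.75, 11.92, 11.90 and 11.82 in CD45High cells. The groups do not overlap, and the level was 1.60-fold lower (-0.68, SE 0.13, adjusted p = 0.0276). A weaker Tgfbr2 probe, ILMN_1242086, gave -1.56 (adjusted p = 0.0147). Yod1 read 7.01, 7.19, 6.78 and 7.10 in CD25High cells, against 7.40, 7.76, 7.68 and 7.58 in CD45High cells, where all values were higher (-0.59 in CD25High relative to CD45High cells, SE 0.13, adjusted p = 0.0490). Tiam1 passed whichever pair was left out (adjusted p = 0.0014 to 0.0359), whereas Marcks, Tgfbr2 and Yod1 each lost the call when the KO unstimulated, the WT stimulated or the WT unstimulated pair was left out (adjusted p = 0.0718 to 0.184).

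**Figure D5:**
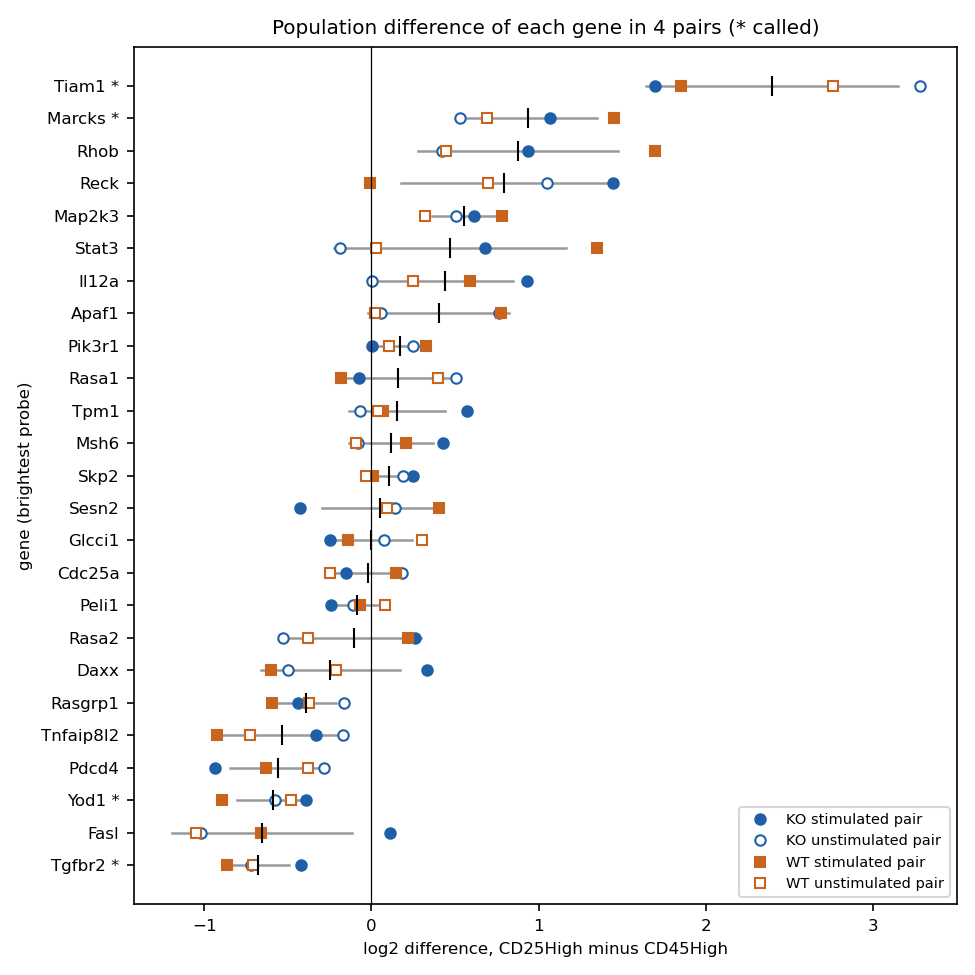
Population difference, CD25High minus CD45High in log2, of each of the 25 genes in the 4 pairs of genotype and stimulation state (symbols), with the mean (tick) and 1 SD either side (grey bar); a star marks the 4 genes that passed. Tiam1 sits between 1.69 and 3.28, apart from all others, and its unstimulated pairs exceed its stimulated pairs.

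The direction was the same in all 4 pairs for 12 of the 25 genes, 48%, against 35.8% of all probes. Those that did not pass were Rhob (0.88, adjusted p = 0.0735), Map2k3 (0.55, adjusted p = 0.0512), Il12a (0.44), Apaf1 (0.40) and Pik3r1 (0.17) above 0, and Pdcd4 (-0.56, adjusted p = 0.0765), Tnfaip8l2 (-0.54) and Rasgrp1 (-0.39) below 0. Il12a passed the filter only through the stimulated CD25High arrays, so its direction here follows from the filter and its unstimulated pairs compare undetected values. A dim probe of Rasgrp1, ILMN_1246905, passed at -0.59 (adjusted p = 0.0467). Fasl (-0.66, adjusted p = 0.128) was below 0 in 3 pairs and at 0.11 in the KO stimulated pair, and it passed when that pair was left out (-0.91, adjusted p = 0.0071), as did Map2k3 (0.54, adjusted p = 0.0483). The B cell markers moved with the population as well: all 8 measured of 11 lay above 0 in CD25High cells and those that passed included Cd79b (2.06), Blk (1.29) and Fcer2a (1.24), with summed linear levels of 834 to 1420, against 310 to 406 in CD45High cells, while Pax5 and Cr2 did not pass the filter and Cd79a was not analysed here. Of the 5 myeloid markers measured Fcer1g was higher by 2.46 and the others did not pass, with sums of 364 to 585 in CD25High cells, against 117 to 350 in CD45High cells. Of the 4 markers of NK and CD8 T cells measured Nkg7 was higher by 1.64 and the others did not pass, Klrd1 lying at -1.36 (adjusted p = 0.0978), with sums of 995 to 1420 in CD25High cells, against 947 to 1318 in CD45High cells. The part of these cells in the population values of Tiam1, Marcks, Tgfbr2 and Yod1 was not tested.

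The promoters of the genes that moved most are shown with the letters of motifs of activation-linked factors that a search found in them (RefSeq, GRCm38.p6, 250 bases before to 50 after a start, plus strand of the gene). The motifs searched on both strands were TGACGTCA (CRE), TGANTCA (AP-1), GCGNGGGCG (EGR), TTCNNNGAA (STAT) and GTAAACA (forkhead). Of 24 measured genes with an entry, 0, 2, 2, 3 and 2 held them in at least 1 promoter, and of all 32851 promoters 1.79%, 7.81%, 5.55%, 8.3% and 3.65% did. The units differ: the 24 genes have 32 promoters, so a gene with more than 1 start had more chances to hold a motif. The windows are those of Map2k3 (chr11:60931804-60932103, plus strand), which holds none of the motifs, of 1 of 2 starts of Pdcd4 (chr19:53891981-53892280, plus strand), with STAT letters in capitals from position -71 relative to the start, and of 1 of 2 starts of Tiam1 (chr16:89974650-89974949, minus strand), with AP-1 letters in capitals from position -15. The other start of Pdcd4 and that of Tiam1 hold none of the motifs.
Map2k3: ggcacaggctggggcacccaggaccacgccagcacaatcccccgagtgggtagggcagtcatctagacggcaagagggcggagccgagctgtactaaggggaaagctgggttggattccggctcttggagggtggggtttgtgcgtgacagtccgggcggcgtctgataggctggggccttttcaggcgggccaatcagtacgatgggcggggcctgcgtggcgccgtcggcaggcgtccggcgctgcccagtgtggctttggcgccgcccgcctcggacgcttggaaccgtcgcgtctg
Pdcd4: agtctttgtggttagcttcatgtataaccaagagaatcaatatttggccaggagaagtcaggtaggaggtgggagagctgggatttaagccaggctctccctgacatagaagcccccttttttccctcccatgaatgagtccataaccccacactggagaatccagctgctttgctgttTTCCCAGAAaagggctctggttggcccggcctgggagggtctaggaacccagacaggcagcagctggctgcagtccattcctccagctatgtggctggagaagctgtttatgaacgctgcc
Tiam1: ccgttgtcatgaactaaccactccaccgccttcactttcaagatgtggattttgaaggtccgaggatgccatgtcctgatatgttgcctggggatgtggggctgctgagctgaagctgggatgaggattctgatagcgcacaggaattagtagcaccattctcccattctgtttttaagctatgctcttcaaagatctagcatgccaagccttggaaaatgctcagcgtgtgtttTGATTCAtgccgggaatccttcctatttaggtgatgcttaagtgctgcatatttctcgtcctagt
A match is a description of the letters and not evidence of binding.

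Other genes of the same pathways were set beside the targets, from lists that hold none of the 33. In the genotype comparison 0 passed of 25 measured genes of microRNA processing and silencing, 0 of 29 of RAS, MAPK and PI3K signalling and 0 of 13 of TGF-beta and BMP signalling, with medians of 0.10, 0.04 and 0.03 log2. With stimulation, 2 genes of the microRNA machinery rose, Ran (0.80) and Xpo5 (0.43), which carry microRNA precursors out of the nucleus, and Tnrc6c, a silencing complex protein, fell by 0.49. Of the RAS, MAPK and PI3K genes 5 fell, among them Rac2, the RAC of blood cells, by 1.49, Rasal3, a RAS GTPase activator, by 0.94 and Pik3cg, a PI3K catalytic subunit, by 0.78. Of the TGF-beta and BMP genes Tgif1, a corepressor of SMADs (2.28), and Acvr2b, an activin receptor (0.93), rose and Tgfbr3, the betaglycan coreceptor, fell by 0.63. Between the populations the microRNA nuclease Drosha was lower in CD25High cells (-0.59). Tgfbr1, the signalling partner of Tgfbr2, was higher by 1.26 in CD25High cells, where Tgfbr2 was lower by 0.68 and Tgfbr3 by 1.86. Tgif1 was higher too, by 0.80, and Rasal3 was lower by 0.72. The phosphatase Inpp5d was higher by 0.70, and Map2k6, which like Map2k3 activates p38, was lower by 0.88 where Map2k3 was at 0.55 and did not pass. Map2k6 also fell with stimulation, by 0.76, where Map2k3 rose.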

How the data were processed

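Total RNA of 8 arrays was measured. For each of 25697 probes, per the file headers, the authors deposited linear bead intensity (mean and standard error), a bead count and a detection p-value. A deposited table of log2 values covers 14533 probes, those detected at p under 0.05 on 1 or more arrays. Its columns correlate at 0.999999 or above with the values used here, so it is neqc-like, quantile normalized and not centred (array medians 5.81). limma is named per the submitters' processing notes. Its version there and the scanner software were not given in the sources used here.

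neqc of limma 3.58.1 (R 4.3.3) turned intensities into log2 values, with normexp background correction, offset 16 and quantile normalization. Probes detected at p under 0.01 on 2 or more arrays entered lmFit and eBayes. A call needed an adjusted p under 0.05 (Benjamini-Hochberg, over all 11047 probes). Matched combinations were blocks, leaving 3 residual degrees of freedom, or 2 where effects were separate by population or state. The pairing comes from the factorial labels. Over all probes, differences of pairs correlated at 0.0255 to 0.419 (genotype), at 0.330 to 0.720 (stimulation) and at 0.387 to 0.813 (population). The fits were tested on simulated data.

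The genes and the 11 lists beside them were chosen with earlier results of these data known. The rule for named genes gave all array values for genes with 1 sign in all genotype pairs, genes called in any comparison, and Pdcd4. Alternatives were no background correction, an offset of 50, cyclic loess, median centring, the deposited value table, no detection filter, detection on all 8 arrays, no block, array weights, a mean over a gene's probes, and leaving out each pair. Some genes of these lists are not reported here.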

Additional observations from a re-analysis of the deposited data

How the results depend on the processing

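No result reversed its direction past the threshold under any alternative. In the genotype comparison over 4 pairs 0 of the 25 genes were called under all 10 alternatives and with each pair left out (0 to 1 probes); the gene median ran from -0.02 to 0.13, the highest with median centring, which moved the median of all probes to 0.10 (0.27 in CD25High cells, and 0.11 for population). Median centring called 518 probes for genotype in stimulated cells, 2 in unstimulated cells and 1 for their difference. Leaving out pairs gave 0 to 3080 probes, 0 to 4 genes higher and 0 to 1 lower in CD25High cells, 0 to 3 probes in CD45High cells, and 0 to 1772 probes and 0 to 3 genes higher for their difference; 0 to 3700 probes, 0 to 6 genes higher and 0 to 2 lower in stimulated cells, 0 to 41 probes in unstimulated cells, and 0 to 2003 probes and 0 to 3 genes higher for their difference. These fits leave a lone pair, taken to vary like the others.

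For stimulation over 4 pairs, 2 genes were called higher with median centring, with no filter (1162 probes) and with a mean over probes. Leaving out pairs gave 0 to 2515 probes, 0 to 4 genes higher and 0 to 4 lower. In CD25High cells no filter gave 901 probes, array weights 596 with 3 genes higher and 1 lower, and leaving out pairs 169 to 3969 probes, 1 to 8 higher and 1 to 5 lower. In CD45High cells, where the main count was 104 probes, 347 were called with no background correction and 324 with an offset of 50, each with 2 genes higher and 2 lower, 322 with detection on all arrays (2 higher), 256 without the pair block and 1371 with array weights (4 higher, 2 lower). Cyclic loess gave 11 probes, median centring 1 and no filter 0, each with 0 genes higher and 0 lower, the deposited values 0 lower, and leaving out pairs 0 to 2451 probes, 0 to 5 higher and 0 to 3 lower. The difference between populations had 0 to 2011 probes, 0 to 3 genes higher and 0 to 1 lower. Beside the 0 calls of the main fits stand 4 genes at an unadjusted p under 0.05 for genotype in CD25High cells and 3 in stimulated cells.

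For population, median centring called 5 genes higher and 0 lower, no filter 1 and 1 (558 probes), and array weights 4 and 5 (1928 probes); leaving out pairs gave 231 to 1335 probes, 1 to 3 genes higher and 0 to 3 lower. The causes of these shifts were not tested. Removing the pair block changed no call of the 25 genes over 4 pairs in the genotype or stimulation comparison and called 5 in place of 4 for population. Signals near background limit Glcci1, Il12a, Sesn2 and Reck, whose differences shrink with a larger offset. Skp2, although detected on all 8 arrays, was dim as well.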
